A study of Mus musculus with 4 samples.

Results

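Integrins are the receptors with which cells hold on to the extracellular matrix, and focal adhesion proteins are the intracellular proteins that tie integrins to actin filaments. All mouse genes with an integrin α symbol (Itga followed by a number or letters) or the symbols Itgb1 to Itgb8 were taken, together with 15 named genes of the adhesion plaque (Ptk2, Pxn, Vcl, Tln1, Tln2, Zyx, Ilk, Parva, Fermt1, Fermt2, Fermt3, Bcar1, Vasp, Actn1 and Actn4). This gave 41 genes, 26 of them integrin subunits, of 54842 genes in the count table, which also lists 1562 repeat families. They were compared between untreated wild-type (wt) mouse embryonic fibroblasts (MEF cells) and untreated MEF cells null for topoisomerase 2β (Top2β-null), with 2 libraries of total RNA, depleted of ribosomal RNA, for each genotype. Topoisomerase 2β is an enzyme that passes DNA strands through each other to relieve twisting and tangling. The Top2β-null MEF cells were a gift from other laboratories, and the sources used here do not state whether the wt MEF cells of this comparison were derived alongside them, so that genotype and any difference in the origin of the cells cannot be told apart. The age of the embryos and the allele were not given in the labels, and the labels do not say whether the 2 libraries of a genotype came from separate cultures, so p-values measure the spread between these libraries, which may be technical. A lower level of a transcript cannot be told apart from fewer cells that make it.

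The 4 libraries held between 133116830 and 149647278 counts. Top2b, the targeted gene, reached 18259 and 18465 normalized counts in wt and 3879 and 3789 in Top2β-null MEF cells, 20.9% of the wt mean. It fell by 2.26 on the log2 scale (SE 0.027, adjusted p = 6.56e-19). The counts cover the whole gene, and the part that was deleted was not given in the sources used here. Of 13 fibroblast markers, 11 were tested, each with 223 or more normalized counts in every library, while Lum and Fap did not reach the filter on low counts. By the adjusted p, 6 of them (54.5%) were higher and 4 (36.4%) lower in Top2β-null MEF cells, with a median log2 fold change of 0.40. Of all features with a mean above 100, as these 11 had, 36.7% were higher and 38.3% lower. Among the leukocyte markers, Ptprc, Tyrobp, Cd3e and Adgre1 had at most 6.76 normalized counts in any library, while Cd68, Cd14 and Csf1r were present in all 4 libraries, at 289 to 1688 normalized counts.

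Each integrin is a pair of 1 α and 1 β subunit, and the pair decides which matrix protein is bound. Talins and kindlins bind the β tail and switch the receptor on, focal adhesion kinase, paxillin and p130Cas pass the signal on, and vinculin, α-actinin, zyxin and VASP connect the site to actin and reinforce it under tension. Fibroblasts are known for large focal adhesions with the fibronectin receptor α5β1 and the vitronectin receptors of αv.

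The count table was used to ask which of these genes differ between the genotypes. A gene was called when its adjusted p was below 0.05, its log2 fold change was beyond 1 in either direction and its mean normalized count was above 100. Of the 41 genes, 38 passed the filter on low counts, and 3 of these (Itga4, Itgam and Itgax) passed through the libraries of 1 genotype alone. The genes called lower in Top2β-null MEF cells were Itga5, Itgb2 and Bcar1, and the gene called higher was Itgb8. This is 1 gene higher, against 5.27% of all 26566 features tested, and 3 genes lower, against 4.97%. Among the 32 members with a mean above 100, the same 4 calls stand beside 7.79% higher and 7.35% lower of the 17952 features with such a mean. The share of called members is thus close to the background.

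By the adjusted p alone, 11 members were higher and 18 were lower, where the background over all features was 32.5% in each direction. Of the 32 members with a mean above 100, 9 were higher and 16 were lower, beside 36.7% and 38.3% of such features. The words rose and fell below refer to this adjusted p. The median log2 fold change was -0.14 over the 38 tested members and 0.0027 over all features tested. Leaving out members with a mean at or below 100 gave -0.17, beside -0.0035. For the 15 plaque genes, 14 of which were tested, 3 rose, 8 fell and the median was -0.21. For the 18 integrin subunits with a mean above 100, 6 rose, 8 fell and the median was -0.11. With the 6 rarer subunits that were tested, Itga4, Itgam and Itgax among them, 8 rose, 10 fell and the median was -0.0039.

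**Figure D1:**
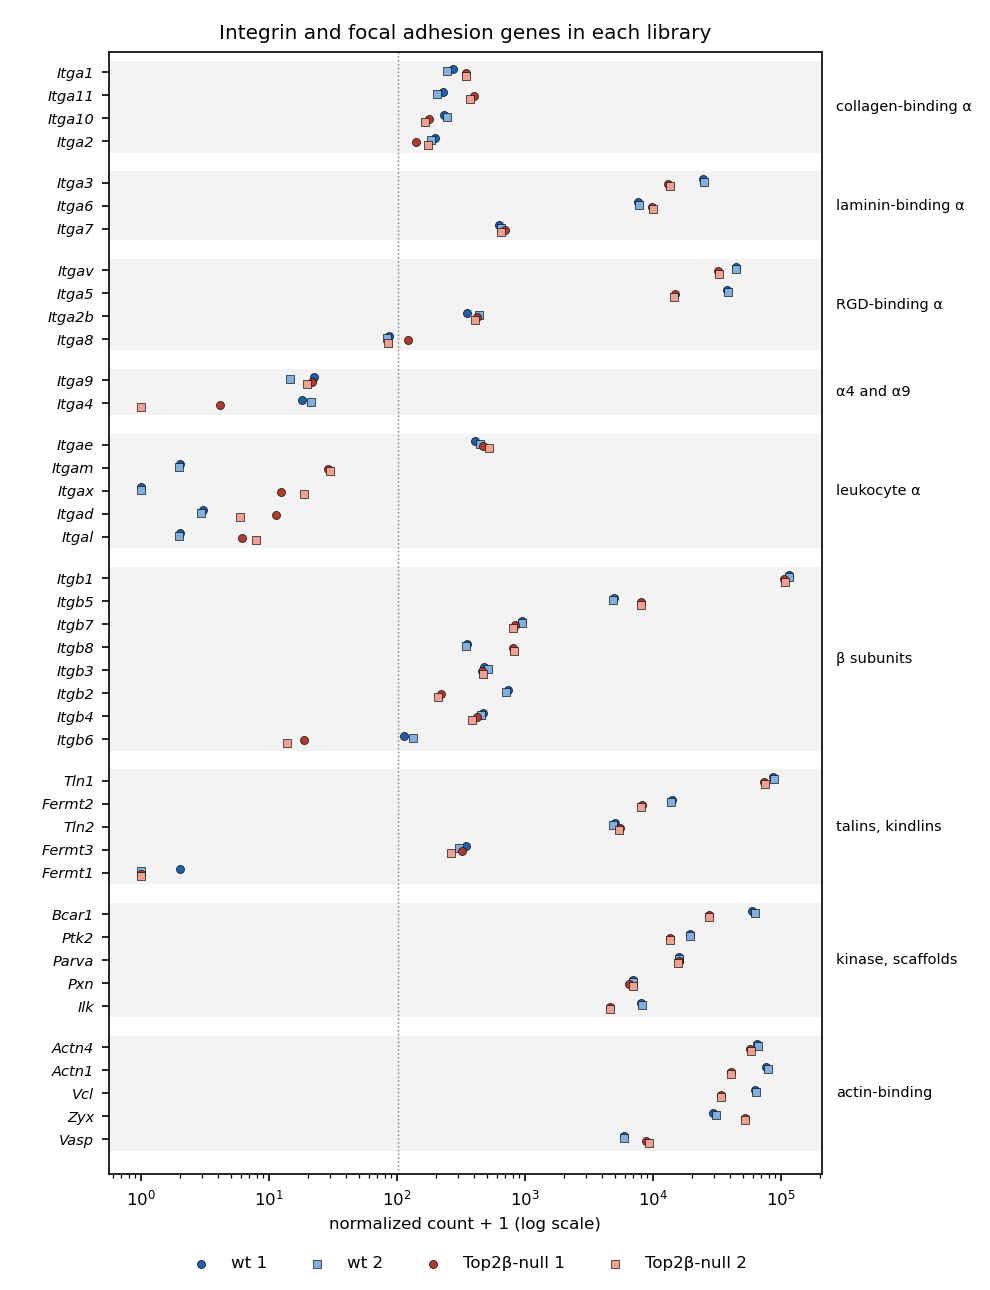
Normalized counts plus 1 of the 41 genes in each of the 4 libraries on a log axis, grouped by role, with wt libraries in blue and Top2β-null libraries in red; the dotted line marks a normalized count of 100. The pairs of replicates lie close together for abundant genes, the levels of Itga5, Bcar1 and Vcl are lower in both Top2β-null libraries, and those of Zyx, Vasp and Itgb5 are higher.

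The stretch before the start site of a gene is where its transcription is set in motion, and the sequences are shown for the called members that have an entry and for 2 members that carry a CArG box, the element bound by serum response factor. Of the 41 genes, 29 have a promoter in the RefSeq table of GRCm38.p6, with 33 start sites. Itgb2 has none, and the entry shown for Bcar1 is the first of its 2. The 250 bases before the start were read 5′ to 3′ on the strand of the gene, and capitals mark matches, on either strand, to the CArG box, to the AP-1 element TGANTCA, to the TEAD element GGAATG, to the GC box GGGCGG or to the TATA box TATAAA. No motif contains another, but copies of GGGCGG overlap in the Vcl promoter.
Itga5, chr15:103366792-103367041, minus strand: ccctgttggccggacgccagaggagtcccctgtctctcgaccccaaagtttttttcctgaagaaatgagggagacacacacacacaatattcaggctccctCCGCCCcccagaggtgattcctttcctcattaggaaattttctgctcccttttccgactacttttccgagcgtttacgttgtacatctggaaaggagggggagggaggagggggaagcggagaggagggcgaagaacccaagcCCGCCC
Bcar1, chr8:111743850-111744099, minus strand: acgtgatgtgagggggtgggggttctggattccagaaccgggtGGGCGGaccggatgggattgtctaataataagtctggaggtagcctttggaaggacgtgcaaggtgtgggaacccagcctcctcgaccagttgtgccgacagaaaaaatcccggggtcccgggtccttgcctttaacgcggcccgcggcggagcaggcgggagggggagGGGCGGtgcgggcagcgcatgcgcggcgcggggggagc
Itgb8, chr12:119238277-119238526, minus strand: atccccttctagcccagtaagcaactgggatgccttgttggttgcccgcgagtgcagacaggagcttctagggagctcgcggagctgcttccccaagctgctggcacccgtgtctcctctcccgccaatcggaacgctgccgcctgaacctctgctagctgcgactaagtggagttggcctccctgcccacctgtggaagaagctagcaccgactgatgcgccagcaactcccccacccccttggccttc
Vcl, chr14:20929148-20929397, plus strand: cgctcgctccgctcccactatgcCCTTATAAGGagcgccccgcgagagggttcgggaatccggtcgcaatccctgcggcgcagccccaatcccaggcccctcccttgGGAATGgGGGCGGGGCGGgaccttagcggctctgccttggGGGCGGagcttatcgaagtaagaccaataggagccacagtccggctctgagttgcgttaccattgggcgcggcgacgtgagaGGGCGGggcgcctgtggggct
Fermt2, chr14:45530066-45530315, minus strand: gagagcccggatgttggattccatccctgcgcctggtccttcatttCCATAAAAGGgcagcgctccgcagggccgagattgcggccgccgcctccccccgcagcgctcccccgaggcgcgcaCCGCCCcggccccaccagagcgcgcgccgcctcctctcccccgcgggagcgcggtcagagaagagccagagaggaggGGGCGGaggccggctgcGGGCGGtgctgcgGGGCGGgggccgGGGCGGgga

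The CArG box was found in 3 of the 33 member promoters (Vcl, Fermt2 and Itgb6) and in 1.47% of 32851 mouse promoters of the same length. TGANTCA was found in 3 of the 33 (Actn4, Itgax and Zyx) and in 6.75% of all promoters. GGAATG was found in 4 of the 33 (Actn4, Itga10, Itgb1 and Vcl) and in 12.6% of all promoters. GGGCGG was found in 16 of the 33, from 14 members with Itga5, Bcar1, Vcl and Fermt2 among them, and in 32.7% of all promoters. TATAAA was found in 0 of the 33 and in 12.4% of all promoters. The window of Itgb8 held none of the 5 motifs. It precedes the start site that RefSeq gives and lies inside the Itgb8 gene of GENCODE M21, which starts farther upstream. These matches describe the letters of the window, and no binding was measured in these libraries.

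Among the α subunits that bind the tripeptide motif RGD of fibronectin and vitronectin, the 2 abundant ones fell and the 2 rare ones did not pass the test. Itga5, the α chain of the fibronectin receptor (chr15:103344286-103366763, minus strand, GRCm38), had 37678 and 38460.1 normalized counts in wt MEF cells and 14780.1 and 14631 in Top2β-null MEF cells. The groups were far apart, and the Top2β-null mean was 38.6% of the wt mean. The fitted log2 fold change was -1.37 (SE 0.025, adjusted p = 1.23e-16).

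Itgav, the αv chain of the vitronectin receptors, had 44785 and 44213 normalized counts in wt and 32021 and 32522 in Top2β-null MEF cells. It fell without overlap of the groups, by less than Itga5, with a log2 fold change of -0.46 (SE 0.025, adjusted p = 1.11e-10). Itga2b, the α chain of the platelet fibrinogen receptor, had 347 and 431 normalized counts in wt and 423 and 408 in Top2β-null MEF cells, and these groups overlapped (log2 fold change 0.09, SE 0.098, adjusted p = 0.433). Itga8, an α chain known from kidney and smooth muscle that binds nephronectin, had 85.8 and 82.1 in wt and 120.1 and 83.2 in Top2β-null MEF cells. Here 1 Top2β-null library lay above the other 3 libraries (log2 fold change 0.27, SE 0.20, adjusted p = 0.258).

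The laminin-binding α subunits moved in different directions. Itga3, which pairs with β1 and binds laminins of epithelial basement membranes, had 24541 and 24934 normalized counts in wt and 13002 and 13509 in Top2β-null MEF cells. It fell by 0.90 on the log2 scale (SE 0.026, adjusted p = 3.64e-14), which is just short of the fold cut-off for a call. Itga6, which pairs with β1 or β4, had 7553 and 7741 in wt and 9723 and 9890.4 in Top2β-null MEF cells, and rose by 0.36 (SE 0.026, adjusted p = 4.37e-09). The 2 laminin receptors thus changed in opposite ways in the same libraries. Itga7, a laminin receptor of muscle, had 619.7 and 646 in wt and 696 and 652 in Top2β-null MEF cells, and did not pass the test (log2 fold change 0.09, SE 0.067, adjusted p = 0.262).

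The collagen-binding α subunits, all of which pair with β1, were low in every library. Itga11, the main receptor of fibroblasts for fibrillar collagen, had 225 and 203 in wt and 398 and 368 in Top2β-null MEF cells. Both Top2β-null libraries were above both wt libraries, with a log2 fold change of 0.84 (SE 0.10, adjusted p = 2.02e-06). Itga1, which prefers basement membrane collagen, had 272 and 242 in wt and 341 and 347 in Top2β-null MEF cells and rose by 0.42 (SE 0.099, adjusted p = 0.00142).

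Itga10, a collagen receptor known from cartilage, went the other way, with 233 and 245 normalized counts in wt and 176 and 163 in Top2β-null MEF cells (log2 fold change -0.50, SE 0.12, adjusted p = 0.00179). Of its exon bases, 33.5% are shared with another annotated gene on the same strand, Gm42957, so that its reads could be assigned to either. Itga2, a receptor of platelets and epithelia for collagen, had 195 and 183 in wt and 139.8 and 173 in Top2β-null MEF cells. The 2 groups did not overlap, but the Top2β-null libraries lay apart from each other (log2 fold change -0.27, SE 0.14, adjusted p = 0.110), and without the second Top2β-null library the adjusted p was 0.0358.

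The related chains α4 and α9 were at low levels. Itga4, which binds VCAM-1 and fibronectin, had 17.2 and 20.3 normalized counts in wt and 3.11 and 0 in Top2β-null MEF cells. The raw counts sum to 38 in wt, but to 3 in Top2β-null MEF cells, a level 12.3 times as high in wt (95% counting interval 3.92 to 62.5). Itga9 had 21.2 and 13.5 in wt and 20.7 and 18.8 in Top2β-null MEF cells, and these groups overlapped (log2 fold change 0.19, SE 0.39, adjusted p = 0.689).

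The α chains known from leukocytes were near absent from wt MEF cells, apart from Itgae. Itgam, the α chain of the complement receptor Mac-1, had 1.01 and 0.966 normalized counts in wt and 28.0 and 28.7 in Top2β-null MEF cells. From raw counts of 2 and 56 the Top2β-null level was 28.7 times the wt level, with a 95% counting interval of 7.59 to 243. Of its exon bases, 68.7% are shared with Gm49368 on the same strand. Itgax, the α chain of a receptor of dendritic cells and macrophages, had 0 counts in both wt libraries and 11.4 and 17.8 normalized counts in the Top2β-null libraries, at least 4.93-fold higher against a floor of 3 counts in each wt library.

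Itgam, Itgax and Itgad are neighbours on chromosome 7, between 128062640 and 128223816. Itgad had 2.02 and 1.93 normalized counts in wt and 10.4 and 4.95 in Top2β-null MEF cells, and Itgal, the α chain of LFA-1 on the same chromosome, had 1.01 and 0.966 in wt and 5.18 and 6.93. Neither reached the filter for a test. All 4 stayed below 30 normalized counts in every library. Itgam and Itgax passed the filter through the Top2β-null libraries alone, so the direction of the 4 is not read as a joint result. Over the 14 leukocyte markers the summed level was 3324 and 3367 in wt and 2128 and 2161 in Top2β-null MEF cells, and 9 of the 14 were too low to test. Of the 5 tested, Cd68 fell (-2.49), Csf1r and Fcer1g rose (0.36 and 0.74), and Cd14 and Coro1a did not pass, while Tyrobp and Adgre1 were at 0 in all 4 libraries.

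Itgae, the αE chain that pairs with β7 and binds E-cadherin, had 406 and 446 normalized counts in wt and 470.2 and 525 in Top2β-null MEF cells. The groups did not overlap, and the log2 fold change was 0.22 (SE 0.084, adjusted p = 0.0289). It did not pass with DESeq2 (adjusted p = 0.129), without the first wt library (0.255) or without the second Top2β-null library (0.152).

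Among the 8 β subunits, Itgb1 was by far the most abundant and changed little, Itgb5 and Itgb8 rose, and Itgb2 and Itgb6 fell. Itgb1, the common partner of the collagen, laminin and α5 chains, had 114894 and 115919 normalized counts in wt and 104837 and 106661 in Top2β-null MEF cells. Its log2 fold change was -0.13 (SE 0.027, adjusted p = 0.000775), and with scaling to the total count it was -0.06 (adjusted p = 0.102). Itgb5, a partner of αv in vitronectin binding, had 4912 and 4854 in wt and 8083 and 8059 in Top2β-null MEF cells, a log2 fold change of 0.73 (SE 0.027, adjusted p = 8.17e-13). The 2 genotypes were separated by a gap many times the difference between replicates.

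Itgb8, which pairs with αv and binds latent TGF-β (chr12:119158022-119238802, minus strand), had 349 and 344 normalized counts in wt and 804 and 824 in Top2β-null MEF cells. It was the called member that rose, 2.35-fold, with a log2 fold change of 1.23 (SE 0.070, adjusted p = 1.89e-10). Itgb6, another partner of αv for latent TGF-β, known from epithelia, had 111 and 132 in wt and 17.6 and 12.9 in Top2β-null MEF cells. It fell by 2.99 on the log2 scale (SE 0.26, adjusted p = 4.66e-08) but was not called, since its mean was under 100. The 2 β chains that serve αv in TGF-β activation therefore moved in opposite directions, and per kb of exon Itgb8 was the more abundant of them in both genotypes (31.3 against 17.1 normalized counts per kb in wt, 73.6 against 2.14 in Top2β-null MEF cells).

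Itgb2, the β chain shared by the leukocyte receptors LFA-1 and Mac-1 (chr10:77530252-77565708, plus strand), had 736 and 713 normalized counts in wt and 219.6 and 208 in Top2β-null MEF cells. It fell to 29.5% of the wt mean (log2 fold change -1.76, SE 0.081, adjusted p = 1.23e-11). Its 4 α partners Itgal, Itgam, Itgax and Itgad stayed at low levels in every library, and Itgal and Itgad were not tested. Itgb7, the partner of αE and α4, had 944 and 948 in wt and 837 and 804 in Top2β-null MEF cells (log2 fold change -0.21, SE 0.058, adjusted p = 0.00570). Itgb4, the partner of α6 in hemidesmosomes, had 468 and 449 in wt and 418 and 383 in Top2β-null MEF cells (log2 fold change -0.19, SE 0.082, adjusted p = 0.0472). Both were small differences. Neither passed with DESeq2, where the adjusted p was 0.0609 for Itgb7 and 0.234 for Itgb4, and Itgb7 did not pass with scaling to the total count (0.0514). Itgb4 did not pass under any alternative fit that kept all libraries. Itgb3, the partner of αv and αIIb, had 475 and 512 in wt and 458 and 465 in Top2β-null MEF cells and did not pass (log2 fold change -0.10, SE 0.076, adjusted p = 0.282).

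To compare subunits with each other, normalized counts were divided by the exon length of each gene. Summed over the 18 α genes, the mean level was 17425 normalized counts per kb in wt, against 9836 in Top2β-null MEF cells, while over the 8 β genes it was 30430 (wt) against 28762 (Top2β-null). Itga5 made up 44.3% ± 0.26 (SD, n = 2) of the α sum in wt, but 30.3% ± 0.48 (SD, n = 2) of it in Top2β-null MEF cells. Itgav took 23.8% ± 0.42 (SD, n = 2) of the wt sum, and its share of the Top2β-null sum was 30.5% ± 0.073 (SD, n = 2). In wt the order by level per kb was Itga5, Itga3, Itgav, Itga6. In Top2β-null MEF cells Itgav and Itga5 stood side by side within the spread of the replicates, followed by Itga3 and Itga6. The share of Itga3 was 24.9% ± 0.061 (SD, n = 2) and 23.6% ± 0.44 (SD, n = 2), and that of Itga6 was 4.86% ± 0.042 (SD, n = 2) and 11.05% ± 0.039 (SD, n = 2). Itga3 and Itgav were close in wt, with 24.8% and 24.9% for Itga3 and 24.1% and 23.5% for Itgav in the 2 libraries.

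Of the β sum, Itgb1 made up 92.9% ± 0.077 (SD, n = 2) in wt, while its share was 90.1% ± 0.16 (SD, n = 2) in Top2β-null MEF cells. Itgb5 made up 4.52% ± 0.063 (SD, n = 2) and 7.90% ± 0.099 (SD, n = 2). Each of the other 6 β genes stayed at or below 1.12% in every library. These shares compare genes within a library and do not depend on how the libraries were scaled, but they depend on the exon lengths used.

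**Figure D2:**
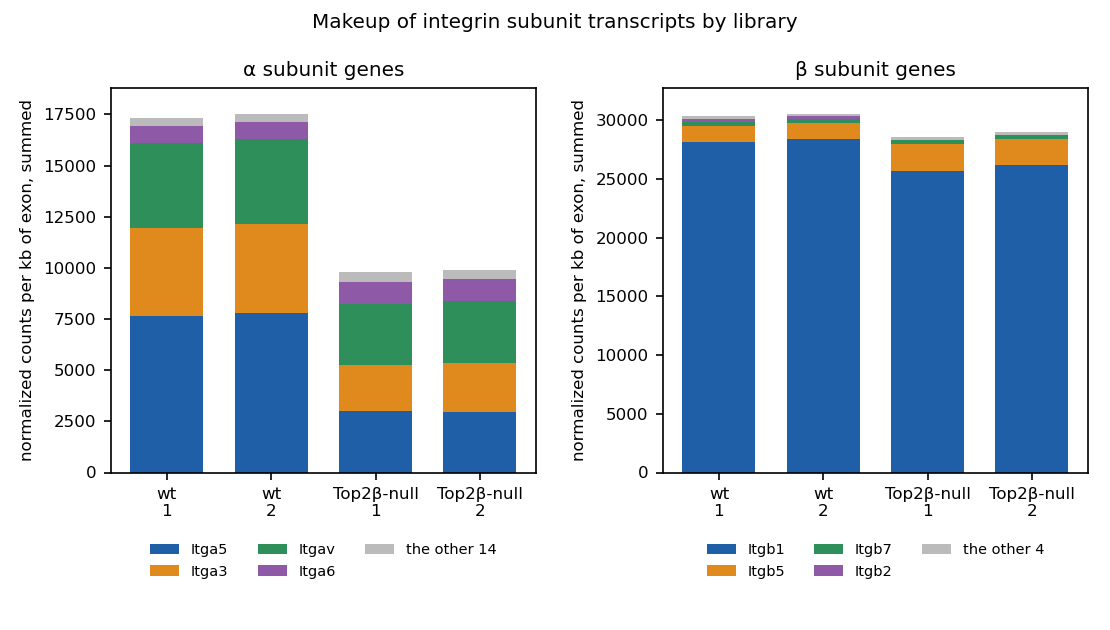
Normalized counts per kb of exon, stacked by gene, for the α subunit genes and the β subunit genes in each of the 4 libraries. The α stack averages 17425 in wt but 9836 in Top2β-null MEF cells, with the largest loss in Itga5, whereas the β stack, mostly Itgb1, is 30430 and 28762.

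Talins and kindlins bind the tails of β integrins from inside the cell. Tln1, the main talin of fibroblasts, had 86168 and 87689 normalized counts in wt and 73847 and 74326 in Top2β-null MEF cells, a log2 fold change of -0.23 (SE 0.027, adjusted p = 1.23e-06). Its paralog Tln2 had 5030.4 and 4858 in wt and 5485 and 5432 in Top2β-null MEF cells and rose by 0.14 (SE 0.030, adjusted p = 0.000621). Both talins moved little, and in opposite directions. Fermt2, the kindlin of most adherent cells, had 13928 and 13909 in wt and 8159 and 8035 in Top2β-null MEF cells, and fell by 0.78 (SE 0.025, adjusted p = 1.09e-13). Fermt3, the kindlin of blood cells, had 345 and 303 in wt and 321 and 261 in Top2β-null MEF cells, with overlapping groups (log2 fold change -0.16, SE 0.11, adjusted p = 0.241). Fermt1, the kindlin of epithelia, had 1 count in 1 wt library and 0 in the other 3 libraries.

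Among the kinase and scaffold proteins, Bcar1, Ilk and Ptk2 fell, and the levels of Pxn and Parva were close between genotypes. Bcar1, which encodes the scaffold p130Cas, a substrate of Src and focal adhesion kinase (chr8:111710474-111743809, minus strand), had 59638 and 62277 normalized counts in wt and 27102 and 27129.7 in Top2β-null MEF cells. The Top2β-null mean was 44.5% of the wt mean, with a log2 fold change of -1.17 (SE 0.028, adjusted p = 2.85e-15). Ptk2, which encodes focal adhesion kinase, had 19518 and 19578 in wt and 13627 and 13562 in Top2β-null MEF cells (log2 fold change -0.52, SE 0.024, adjusted p = 1.13e-11). Both of these partners fell, Bcar1 by more.

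Ilk, Parva and the PINCH proteins form a complex on the β tail. Ilk, the integrin-linked kinase, had 8075 and 8149 normalized counts in wt and 4586 and 4640.1 in Top2β-null MEF cells (log2 fold change -0.81, SE 0.027, adjusted p = 2.14e-13). Of its exon bases, 76.7% are shared with Taf10 on the opposite strand, and Taf10 had a log2 fold change of -0.36. Parva, the α-parvin that binds ILK and actin, had 16028 and 16052 in wt and 15804 and 15688 in Top2β-null MEF cells (log2 fold change -0.03, SE 0.024, adjusted p = 0.350). Pxn, the adaptor paxillin, had 6928 and 7019 in wt and 6527 and 6912 in Top2β-null MEF cells (log2 fold change -0.05, SE 0.030, adjusted p = 0.139). For both, the sign of the difference turned with scaling to the total count (0.04 for Parva and 0.02 for Pxn).

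The actin-binding members split, with vinculin and both α-actinins lower and zyxin and VASP higher. Vcl, vinculin, which binds stretched talin and actin, had 62897 and 63594 normalized counts in wt and 34173 and 33991 in Top2β-null MEF cells, a log2 fold change of -0.89 (SE 0.026, adjusted p = 2.80e-14). Actn1, an α-actinin that crosslinks actin filaments, had 76895 and 78557 in wt and 40731 and 40759.9 in Top2β-null MEF cells (log2 fold change -0.93, SE 0.026, adjusted p = 2.37e-14). The Top2β-null means of these 2 genes were 53.9% and 52.4% of the wt means, just short of the fold cut-off. Actn4, the other non-muscle α-actinin, had 64684 and 66378 in wt and 57107 and 57994 in Top2β-null MEF cells, which lay closer (log2 fold change -0.19, SE 0.027, adjusted p = 1.35e-05).

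Zyx, zyxin, a LIM protein that gathers at stretched stress fibres, had 29306 and 31255 normalized counts in wt and 52346 and 52565 in Top2β-null MEF cells. It rose to 173% of the wt mean (log2 fold change 0.79, SE 0.030, adjusted p = 1.07e-12). Vasp, a promoter of actin filament growth that zyxin recruits, had 5888 and 5885 in wt and 8755 and 9247 in Top2β-null MEF cells, and rose by 0.61 (SE 0.030, adjusted p = 2.31e-11). Both were thus higher in the same libraries in which their neighbours at the adhesion, Vcl and Actn1, were lower. Of the exon bases of Vcl, 25.5% are shared with Ap3m1 on the opposite strand, and Ap3m1 had a log2 fold change of -0.76. Zyx shares 4.38% with Epha1 on the opposite strand, and Epha1 had one of 0.97. In all, 16 of the 41 genes share exon bases with another annotated gene, 4 of them with one on the same strand. The library kit keeps strand, but whether strand was used in counting was not given in the sources used here, and the part of these overlaps in the differences was not tested.

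**Figure D3:**
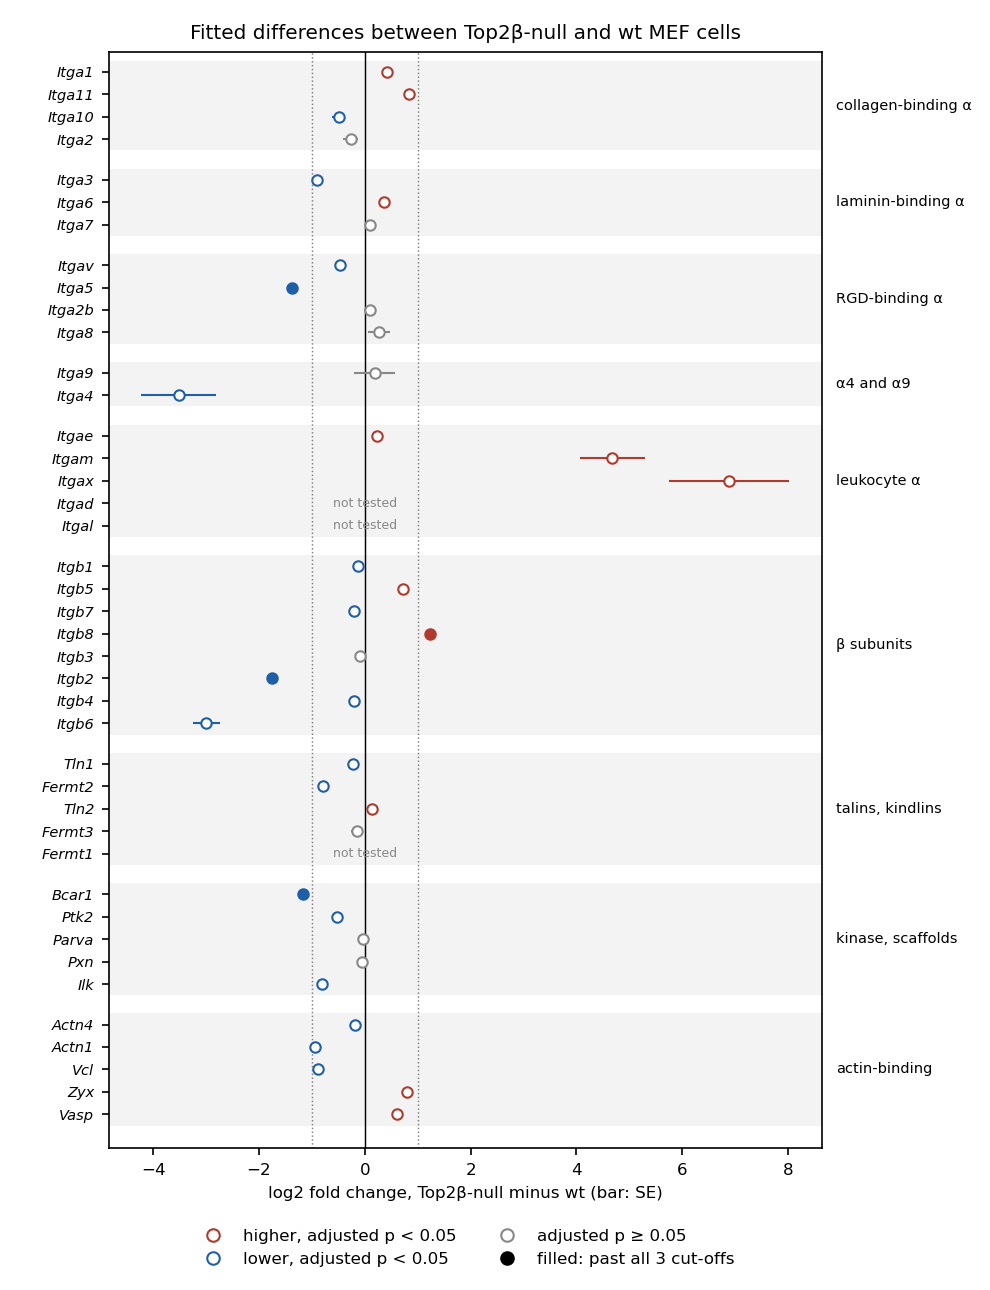
Fitted log2 fold change (Top2β-null minus wt) of each gene with its SE as a bar, grouped by role; red marks higher, blue lower and grey an adjusted p of 0.05 or more, filled points passed all 3 cut-offs, and dotted lines mark 1 and -1. Filled points are Itga5, Itgb2, Bcar1 and Itgb8, and the fitted values of Itga4, Itgam and Itgax rest on a genotype with 0 to 3 counts in each library.

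The ratio of 2 genes in the same library does not depend on the scaling between libraries. The log2 ratio of Itga5 to Itgb1 counts was -1.61 and -1.59 in wt and -2.83 and -2.87 in Top2β-null MEF cells. They differed by -1.25 on average, beside a pooled SD of 0.021. That of Zyx to Vcl was -1.10 and -1.02 in wt and 0.62 and 0.63 in Top2β-null MEF cells, so that the means lay 1.69 apart beside a pooled SD of 0.039. Actn4 to Actn1 moved by 0.74 beside 0.011, Itgb5 to Itgav by 1.19 beside 0.013, and Itga6 to Itga5 by 1.73 beside 0.020. Bcar1 to Ptk2 moved by -0.64 beside 0.029 and Pxn to Ptk2 by 0.47 beside 0.045. The pairs were chosen with earlier results of these data known, so a shift in a ratio restates the fold changes of its genes. The share of other gene pairs that shift as far was not computed. With 2 libraries in each group, an exact permutation test cannot give a p below 0.33, so no p is given for a single ratio.

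**Figure D4:**
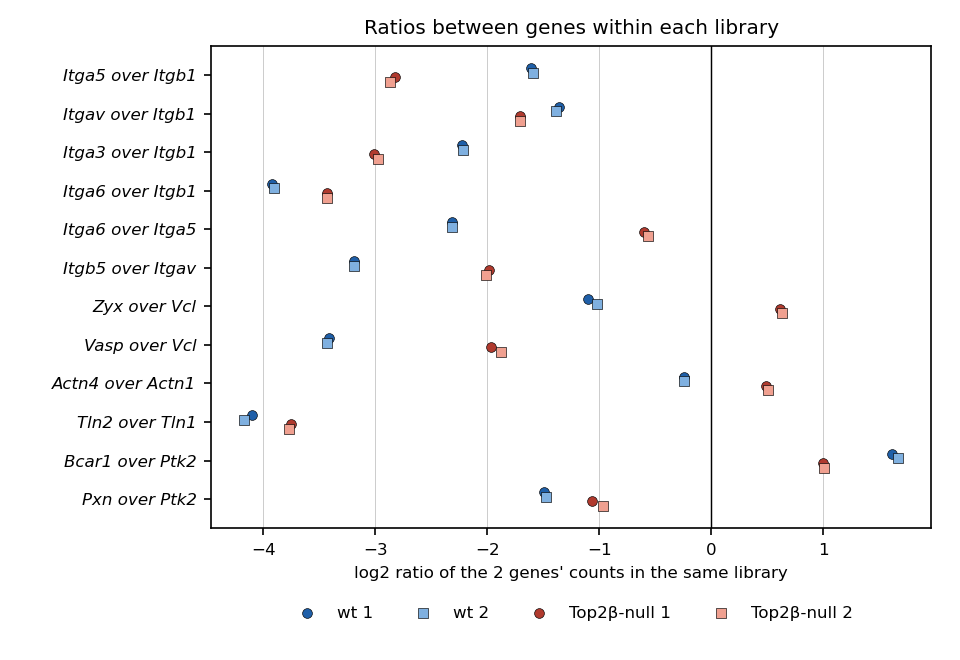
Log2 ratio of the counts of 2 genes within each library, for 12 pairs, with wt libraries in blue and Top2β-null libraries in red; counts are not divided by length, so only shifts between libraries are to be read. The Zyx to Vcl ratio moves from -1.06 to 0.62 on average and the Itga5 to Itgb1 ratio from -1.60 to -2.85.

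Other genes of the adhesion complex were taken from a list of 47, of which 45 were tested. The list was written with earlier results of these data known. Of the 45, 12 genes (26.7%) were called lower, beside 4.97% of all features, and 1 (2.22%) was called higher, beside 5.27%. Of the 41 with a mean above 100, 29.3% were called lower and 2.44% higher, beside 7.35% and 7.79% of such features. With at least 100 counts in every library, which Parvb, Parvg, Sorbs2 and Lims2 do not reach, 8 were called lower. The median log2 fold change was -0.31, beside 0.0027 over all features. The 5 called genes with the largest change were Parvb, Parvg, Sorbs2, Lims2 and Csrp1. Parvb, the β-parvin that can take the place of α-parvin beside ILK, had 16954 and 17299 normalized counts in wt and 20.7 and 15.8 in Top2β-null MEF cells, a log2 fold change of -9.87 (SE 0.061, adjusted p = 1.03e-21). Parva held its level in the same libraries, so that the log2 ratio of Parvb to Parva counts went from 0.08 and 0.11 in wt to -9.58 and -9.95 in Top2β-null MEF cells.

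Parvg, the parvin of blood cells, lies next to Parvb on chromosome 15 and had 194 and 227 normalized counts in wt and 3.11 and 0.990 in Top2β-null MEF cells. From raw counts of 427 and 4, its wt level was 104 times as high (95% counting interval 40.4 to 384). Sorbs2, a vinculin-binding adaptor, had 5883 and 6044 in wt and 103 and 92.1 in Top2β-null MEF cells (log2 fold change -5.94, SE 0.062, adjusted p = 1.47e-19). Lims2, which encodes the PINCH2 partner of ILK, had 487 and 476 in wt and 45.6 and 59.4 in Top2β-null MEF cells (log2 fold change -3.19, SE 0.13, adjusted p = 3.22e-12). Csrp1, a LIM protein that binds zyxin and α-actinin, had 22204 and 22986 in wt and 2678 and 2624 in Top2β-null MEF cells (log2 fold change -3.09, SE 0.030, adjusted p = 6.56e-20). Because these 5 genes were picked for the largest change, a wide gap between the genotypes follows from that choice. Parvg passed the filter on low counts through the wt libraries alone. Tns4, a tensin named after its values were seen, had too low a mean to be called, with 0 and 0.966 in wt and 68.4 and 48.5 in Top2β-null MEF cells. The gene called higher, named here after its values were seen, was Enah, the relative of VASP that zyxin also recruits, with 3115 and 3000.1 in wt and 14779 and 14319.6 in Top2β-null MEF cells (log2 fold change 2.25, SE 0.030, adjusted p = 2.14e-18).

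All 15 genes of a list of integrin regulators and partners were tested, and 1 was called higher and 1 lower (6.67% each). This is near the background of 5.27% and 4.97%, or 7.79% and 7.35% of features with a mean above 100, which all 15 had. The median was 0.05. Apbb1ip, the adaptor RIAM that brings talin to integrins, had 4629 and 4751 normalized counts in wt and 10209.7 and 10252 in Top2β-null MEF cells (log2 fold change 1.13, SE 0.027, adjusted p = 2.90e-15). Rassf5, the Rap1 effector RAPL, had 1428 and 1512 in wt and 659 and 665 in Top2β-null MEF cells (log2 fold change -1.15, SE 0.058, adjusted p = 3.43e-11).

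The ligands that integrins bind changed in both directions. Of 32 listed ligand genes, 29 were tested. Of these, 9 (31.0%) were called higher and 7 (24.1%) lower, beside 5.27% and 4.97% of all features, with a median of -0.13 beside 0.0027. Of the 26 with a mean above 100, 34.6% were called higher and 26.9% lower, beside 7.79% and 7.35% of such features. This list, too, was written with earlier results of these data known. Spp1, osteopontin, a ligand of αv and α9 integrins, had 2355 and 2329.7 normalized counts in wt and 91872 and 92697 in Top2β-null MEF cells (log2 fold change 5.30, SE 0.032, adjusted p = 1.03e-21). Postn, periostin, a ligand of αv integrins, had 2573 and 2563 in wt and 41.4 and 46.5 in Top2β-null MEF cells (log2 fold change -5.86, SE 0.084, adjusted p = 4.72e-18). These 2 matrix proteins changed in opposite directions.

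Npnt, nephronectin, the ligand of α8β1, had 66.6 and 87.9 normalized counts in wt and 1262 and 1325 in Top2β-null MEF cells (log2 fold change 4.06, SE 0.098, adjusted p = 3.05e-15), while the groups overlapped for its receptor chain Itga8. Among laminin α chains, which α3, α6 and α7 integrins bind, Lama2 had 28.3 and 44.4 in wt and 1212 and 1121 in Top2β-null MEF cells (log2 fold change 4.99, SE 0.12, adjusted p = 3.96e-15). Lama4 had 79.7 and 55.1 in wt and 1022 and 971 in Top2β-null MEF cells (log2 fold change 3.89, SE 0.11, adjusted p = 3.10e-14). Lama5 went the other way, with 28599.8 and 29282 in wt and 4356 and 4212 in Top2β-null MEF cells (log2 fold change -2.76, SE 0.028, adjusted p = 1.26e-19), and Lama3 did not pass the test (adjusted p = 0.329). Laminin α chains were thus called in both directions. Lama5 and Lama3 were named after their values were seen. Fn1, fibronectin, the ligand of α5β1, was shown because Itga5 was called and was chosen after its values were seen. It had 428501 and 437229.9 in wt and 338101 and 337858 in Top2β-null MEF cells, a log2 fold change of -0.36 that was smaller than that of its receptor chain.

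**Figure D5:**
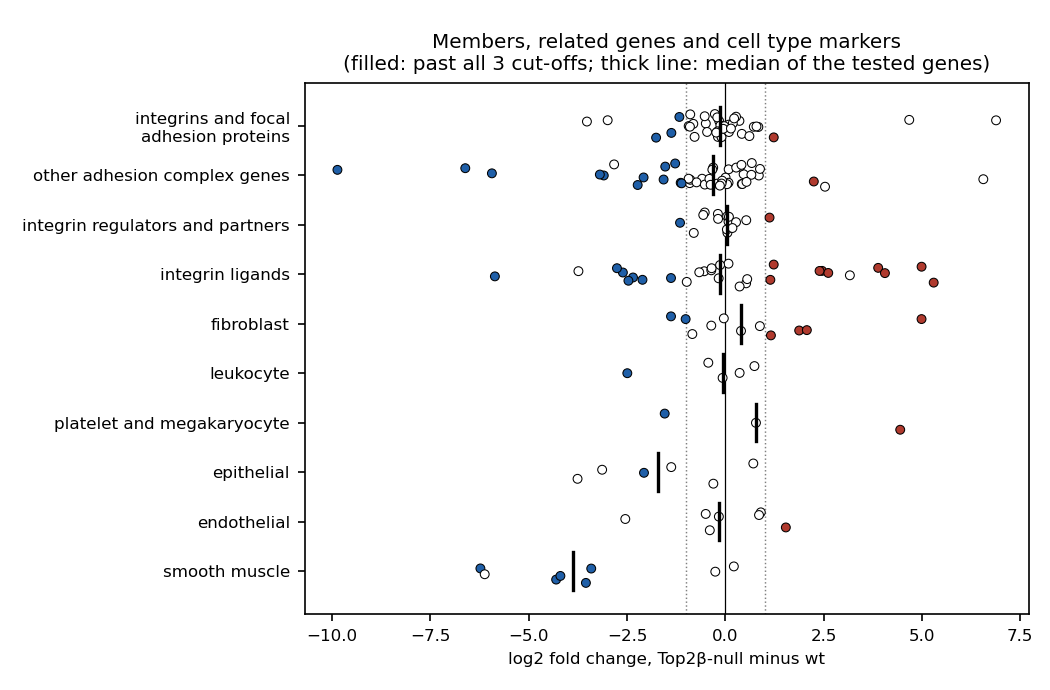
Log2 fold change (Top2β-null minus wt) of every tested gene in the member list, 3 lists of related genes and 6 lists of cell type markers; filled points passed all 3 cut-offs, thick lines are medians and dotted lines mark 1 and -1. Most members lie between -1 and 1, whereas the ligands spread to both sides and the smooth muscle markers lie mostly below -3.

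Markers of contractile smooth muscle cells fell alongside Vcl, Actn1 and Itga5. Of 8 markers, all were tested and 5 were called lower (62.5%), beside 4.97% of all features. Of the 6 with a mean above 100 these are 83.3%, beside 7.35% of such features. The median log2 fold change was -3.87 and includes Des, which passed the filter through the wt libraries alone. Smtn rose by 0.22 and Myh11 did not pass (-0.25). Their summed level was 130062 and 132993 normalized counts in wt and 18866 and 18812 in Top2β-null MEF cells. Acta2, smooth muscle α-actin, which fibroblasts under tension also make, had 104063 and 106902 in wt and 5256 and 5431 in Top2β-null MEF cells. The summed level of the 13 fibroblast markers was 1342596 and 1366548 in wt and 940828 and 947679 in Top2β-null MEF cells. The sum went down with the collagen chain Col1a1 (log2 fold change -1.38), Vim (-0.84) and Fn1 (-0.36), whereas Dcn (4.99), Thy1 (2.07), Pdgfrb (1.88) and Pdgfra (1.16) were called higher, and Col1a1 and Col3a1 (-1.01) were called lower. The summed level of 11 epithelial markers was 1014 and 1061 in wt and 670.1 and 701 in Top2β-null MEF cells. That of 10 endothelial markers was 311 and 307 in wt and 527 and 507 in Top2β-null MEF cells, and that of 8 platelet markers was 911 and 838 in wt and 1230.4 and 1224 in Top2β-null MEF cells. Within these lists the tested markers did not all move one way. Of 6 tested epithelial markers 5 fell and 1 rose, and of 7 tested endothelial markers 3 rose and 1 fell, beside 32.5% of all features in each direction. Of those that fell, Cdh1, Cldn4, Krt8 and Tek passed the filter on low counts through the wt libraries alone. Of the platelet markers 5 were too low to test, Gp1ba was called lower (log2 fold change -1.54), Gp1bb rose (0.78) and Ppbp was called higher, with 8.07 and 31.9 in wt and 424 and 465 in Top2β-null MEF cells. The part of these cell type markers in the differences of the integrin and adhesion genes was not tested.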

How the data were processed

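Sequencing of total RNA without ribosomal RNA gave 2 wt and 2 Top2β-null MEF libraries. After trimming and alignment to mm10 with STAR, the authors used TEtranscripts to count reads per Gencode M9 gene and per repeat family, and the deposited values are raw counts, 1 column per library, not normalized. Symbols, positions and exon lengths are those of GENCODE M21 (GRCm38), which matched 54409 of 54842 gene identifiers. Levels per kilobase, shares of subunits and shared exon bases thus rest on a later annotation than the counts. Features that reached 10 counts in 2 or more libraries were tested with edgeR 4.0.16 in R 4.3.3 (TMM factors over genes and repeats, quasi-likelihood test with genotype as the only term), and p-values were adjusted by Benjamini-Hochberg over all 26566 features. The cut-offs are those in the methods of the study, which used DESeq2. For normalized counts, each library was brought to a common size, the geometric mean of the 4 effective sizes, and the SE of a log2 fold change is its size over the root of its F statistic. Ratios with counting intervals use exact (Clopper-Pearson) binomial limits and cover counting error alone. Replicates differed by more than sampling noise (chi-square over degrees of freedom 3.65 for wt, 5.07 for Top2β-null) and all were kept.

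The members, the gene lists and the tests were chosen with earlier results of these data known. All 41 members are reported, and up to 5 called genes with the largest change are named from each related list. The fits were tested on simulated data. The alternatives were DESeq2 1.42.0, scaling to the total count, TMM factors from genes alone, no filter on low counts, at least 100 counts in every library, the replicate number as a block, and leaving out each library in turn.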

Additional observations from a re-analysis of the deposited data

How the results depend on the processing

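The 1 member called higher and the 3 called lower were counted as 1 and 3 under every alternative listed above. With at least 100 counts in every library, 825 features were called higher in place of 1399. The sign turned for members that did not pass the test: with scaling to the total count, Parva was at 0.043 and Pxn at 0.017. Leaving out 1 library in turn gave ranges of the log2 fold change of -0.27 to 0.0058 for Fermt3, -0.068 to 0.24 for Itga2b, -0.12 to 0.53 for Itga9, -0.043 to 0.0072 for Parva and -0.077 to 0.026 for Pxn. The cause was not tested.

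Of 222 log2 fold changes of members under alternatives with all libraries, 209 kept their sign and side of the adjusted p, 10 (in Itgae, Itgb1, Itgb4 and Itgb7) no longer passed, 1 (Itga7 with scaling to the total count, adjusted p = 0.0459) passed and 2 turned. Of 146 with 1 library left out, the numbers were 133, 5 (in Itgae and Itgb4), 3 and 5. The 3 were Itga2, Itga8 and Pxn without the second Top2β-null library (adjusted p = 0.0358, 0.0358 and 0.0471). Among the alternatives, Itgb4 passed only without the first Top2β-null library, and its adjusted p under the alternatives ran from 0.0497 to 0.332. Without the first or the second Top2β-null library, Itga4 was at -7.24 or -2.53. Scaling to the total count moved the median of all features by 0.07. With the replicate number as a block, 17 members were lower by the adjusted p in place of 18 and 1400 features were called higher. Replicate differences in wt were almost unrelated to those in Top2β-null MEF cells (correlation 0.0038 across 16436 features). This value covers only shifts common to both genotypes, so it cannot decide whether libraries with the same number were handled together. The labels do not say. Fermt1, Itgad and Itgal did not reach the filter on low counts, and few counts give wide intervals, such as 1.23 to 15.9 for the Top2β-null over wt ratio of 3.85 in Itgad.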

Other observations

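Parvb and Parvg lie side by side on chromosome 15, at 84232043 to 84315688 and 84324026 to 84342978, both on the plus strand (GRCm38), and both are near absent from Top2β-null MEF cells. The nearest protein-coding gene before them was Samm50 (84192241 to 84217267), which encodes a mitochondrial outer membrane protein. It had 11699.9 and 12023 normalized counts in wt and 7918 and 7946 in Top2β-null MEF cells (log2 fold change -0.58). The nearest protein-coding gene after them, Shisal1, had at most 2.02 normalized counts in any library. These neighbours were looked up after the values of Parvb were seen.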
